A study of Mus musculus with 7 samples.

Results

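The genes described here are 10 members of the purinergic system: the receptor genes P2ry12, P2ry13, P2ry14, P2ry6, P2rx4, P2rx7, Gpr34 and Adora2a, and the ectonucleotidase genes Entpd1 and Nt5e. They were taken by symbol from the 55385 gene IDs of each count table, and all 10 had enough reads to be tested. The list was chosen by function and by the fold changes of these same libraries, in which P2ry12 and Gpr34 had been seen to be higher with the hairpin against Chi3l1. Differences between the hairpins are therefore given for these genes as a description, without a p-value. Messenger RNA was measured in macrophages sorted from intracranial tumours in C57BL/6 mice. The tumours were grown from 100000 injected cells of the glioma line QPP7, in which Chi3l1 was knocked down by a hairpin (shChi3l1, 3 libraries) or which bore the control vector shSC (4 libraries). All mice were C57BL/6 and all tumours came from that line. The sorted macrophages themselves carried no hairpin. The age of the mice, the time of sorting, the antibodies of the gate, and whether each library is 1 mouse are not stated in the labels. The p-values over all genes then measure only the spread between these libraries, which may be technical.

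Cells that are stressed or dying release ATP and other nucleotides. ATP opens the P2X channels, while ADP, UDP and UDP-sugars act on G protein-coupled P2Y receptors. The ectonucleotidases then cut the nucleotides stepwise: CD39, encoded by Entpd1, removes phosphates from ATP and ADP, and CD73, encoded by Nt5e, turns AMP into adenosine. Adenosine acts on receptors such as that of Adora2a, which dampen the activity of immune cells. In the brain, P2ry12 is a classic gene of resting microglia, whose processes follow ADP towards injury, and Gpr34, a receptor for lysophosphatidylserine, is another gene of microglia.

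Reads assigned to genes numbered 19169129 to 36502664 per library. Levels are given as CPM, the reads of a gene scaled to a common library size. The 10 macrophage markers had reads in every library and summed to 21481 to 45017 CPM, led by the lysozyme gene Lyz2. Chi3l1 itself was at 0.285 to 1.19 CPM in shChi3l1 and 0.774 to 0.819 CPM in shSC libraries. The sorted macrophages carried no hairpin, so these values do not check the knockdown in the tumour cells. Certain libraries stood apart. ShChi3l1 3 had the highest sums of microglia markers (5416 CPM), B-cell markers (1892 CPM) and endothelial markers (106 CPM). ShSC 4 had the highest sums of tumour and glial markers (269 CPM) and of platelet markers (200.0 CPM), and was the shallowest. Over all 15448 tested genes, edgeR's quasi-likelihood test called 0 genes at a Benjamini-Hochberg adjusted p of 0.05, which is 0.0% of them, so 0 of the 10 members were called. An unadjusted p under 0.05 was reached by 229 genes, or 1.48%. Limma's voom with quality weights also called 0, with 713 genes (4.62%) at that unadjusted level. DESeq2's Wald test called 1 (0.00647%), the immunoglobulin segment gene Igkv4-58, named after its values were seen, and had 350 genes (2.27%) at that level.

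P2ry12, P2ry13 and P2ry14 lie close together on chromosome 3, inside the gene Med12l and on its opposite strand. In the deposited tables (mm10), P2ry12 (ENSMUSG00000036353.13) spans 59216272 to 59262871, P2ry13 (ENSMUSG00000036362.2) spans 59207892 to 59210882 and P2ry14 (ENSMUSG00000036381.13) spans 59113855 to 59153618, all on the minus strand. The receptor gene Gpr171 follows P2ry14. The libraries do not mark strand, so reads of spliced Med12l RNA could be counted for these receptors only where exons overlap. That overlap is 9 bases, or 0.35% of the exon bases of P2ry12, and none for P2ry13 or P2ry14. Unspliced Med12l RNA would span these receptor genes whole, and its part in their reads was not tested. Med12l had 0.532 to 2.03 CPM in the 7 libraries. Of the other members, P2rx7 (ENSMUSG00000029468.17, 122643911 to 122691432) and P2rx4 (ENSMUSG00000029470.15, 122707544 to 122729738) are neighbours on the plus strand of chromosome 5. P2ry6 (ENSMUSG00000048779.5) is on the minus strand of chromosome 7, 100937630 to 100974649, beside P2ry2. On plus strands lie Nt5e (ENSMUSG00000032420.8, chromosome 9, 88327197 to 88372092), Adora2a (ENSMUSG00000020178.6, chromosome 10, 75316877 to 75334784) and Entpd1 (ENSMUSG00000048120.16, chromosome 19, 40612366 to 40741602). No exon base of these genes is shared with another gene, except 119 bases of P2rx7 that are those of the microRNA gene Mir8115, which had 0 reads. No stretch of 50 bases of P2ry12, P2ry13 or Gpr34 transcripts occurs in transcripts of another gene in GENCODE release M21, and for P2ry14 it is 1 of 11148 stretches. Among the other members the shared stretches were at most 1.63%, in P2rx4.

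**Figure D1:**
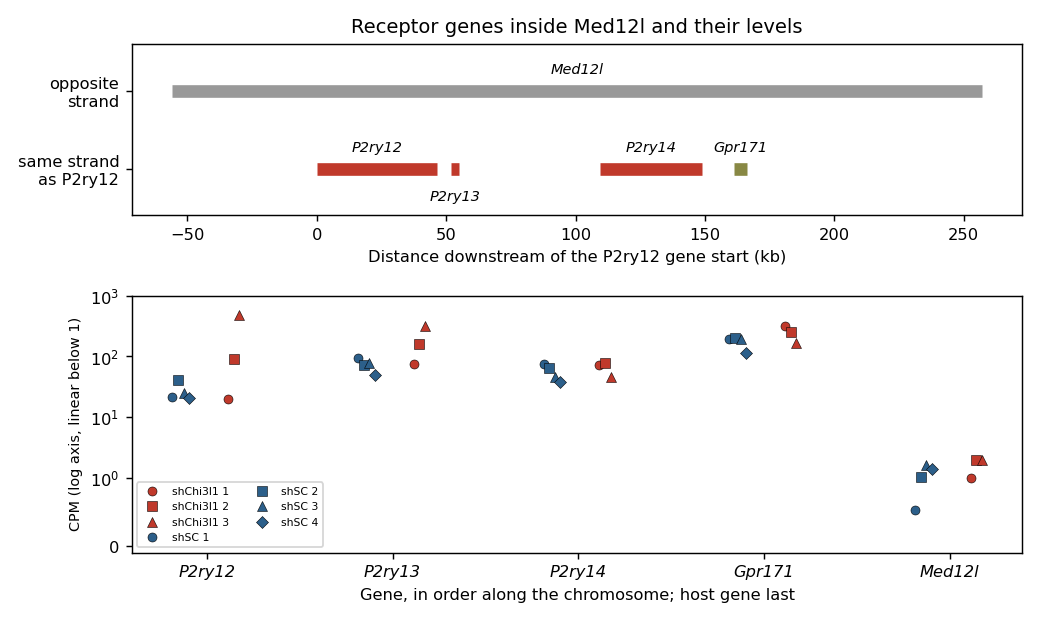
Top, receptor genes along the region (x axis, distance in kb downstream of the P2ry12 gene start), with Med12l on the opposite strand and the members in red. Bottom, CPM of each gene in every library (log axis, linear below 1; red shChi3l1, blue shSC, symbols by replicate): P2ry12 reached 488 CPM and P2ry13 319 CPM in shChi3l1 3, while P2ry14 and Gpr171 were not raised in that library (45.3 and 169 CPM).

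P2ry12 and P2ry13 start 52.0 kb apart, and their upstream sequences are shown because these neighbours had their highest values in the same library. Of the 10 members, 7 have entries in the RefSeq promoter table (GRCm38.p6), with 12 windows in all. Each sequence is the 250 bases before the start, 5′ to 3′ on the minus strand. Capitals mark a match to the PU.1 core GAGGAA, on either strand. PU.1 is the transcription factor that sets the myeloid lineage. The windows are chr3:59262986-59263235 for P2ry12 and chr3:59210883-59211132 for P2ry13.
P2ry12: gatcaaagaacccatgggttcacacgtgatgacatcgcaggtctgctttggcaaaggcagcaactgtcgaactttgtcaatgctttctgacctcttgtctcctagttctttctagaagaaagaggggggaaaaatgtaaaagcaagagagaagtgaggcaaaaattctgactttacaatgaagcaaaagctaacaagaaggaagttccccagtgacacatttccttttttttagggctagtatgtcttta
P2ry13: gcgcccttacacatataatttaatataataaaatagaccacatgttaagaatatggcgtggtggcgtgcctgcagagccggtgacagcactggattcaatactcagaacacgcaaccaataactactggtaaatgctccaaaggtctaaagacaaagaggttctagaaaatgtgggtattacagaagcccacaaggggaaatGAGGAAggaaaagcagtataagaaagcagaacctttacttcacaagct
The P2ry13 window held 1 match, which begins 48 bases before the start, and the P2ry12 window held none of these letters. Of all 32851 promoter windows of this length, 23.3% held the core. Matches were also found in each of the 4 windows of P2ry14, some of which overlap each other, and in 1 of the 2 windows of Entpd1. The windows of P2rx4, P2rx7 and Nt5e held none. The AP-1 letters TGANTCA, searched on both strands and present in 6.75% of all windows, occurred in 2 P2ry14 windows and 1 P2rx7 window. The interferon-response-type motif (2.98% of all windows), the SMAD letters GTCTAGAC (0.167%) and the MEF2 consensus (2.92%) occurred in no window of a member. A match is only a run of letters and not a site.

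In control-hairpin libraries, levels per length differed among the members by 68.2-fold. Divided by exon length, Entpd1 was the highest at 41.6 ± 14.8 CPM per kilobase (SD, n = 4). P2ry6, the receptor for UDP, followed at 37.7 ± 13.3, P2rx4, an ATP-gated channel of macrophages and microglia, at 31.4 ± 8.60, and P2ry13, a receptor for ADP, at 29.2 ± 7.29 CPM per kilobase. These 4 could not be put in order, since each overlapped the next in range. P2ry13 then lay above Gpr34 in 4 of 4 shSC libraries, with ranges apart.

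Gpr34 (11.9 ± 4.37 CPM per kilobase) and P2ry12 (10.7 ± 3.69) formed the next step and overlapped. P2ry12 lay above P2ry14, the UDP-glucose receptor, in 4 of 4 libraries, with ranges of 8.28 to 16.1 and 3.50 to 6.89 CPM per kilobase. P2ry14 (5.10 ± 1.56), P2rx7, the low-affinity ATP channel known for triggering interleukin-1 release (3.83 ± 0.832), and Adora2a (3.52 ± 1.45) overlapped in turn. Nt5e was the lowest at 0.610 ± 0.455 CPM per kilobase, below Adora2a in 4 of 4 libraries. Without division by length, P2ry14, whose annotated exons are the longest of the 10 at 11059 bases, moved from the 7th to the 5th place.

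**Figure D2:**
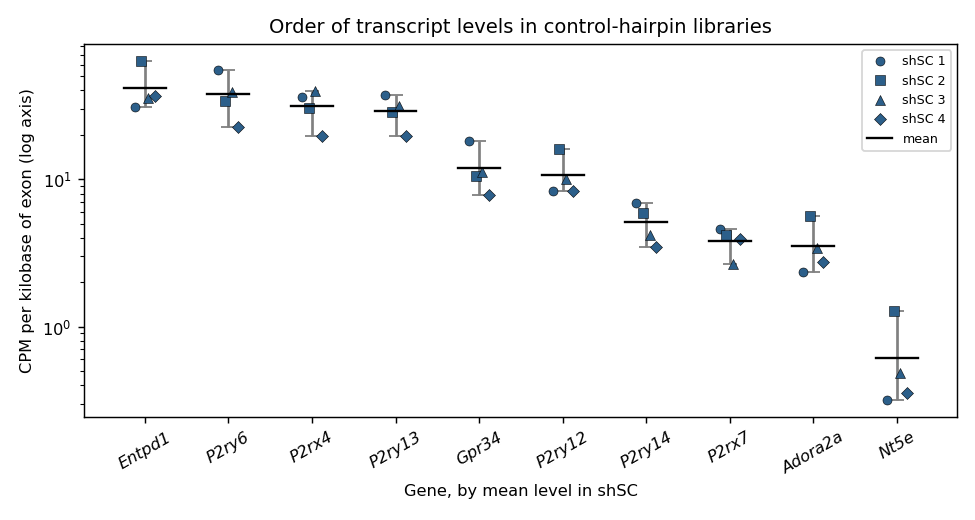
Level of each gene in the 4 shSC libraries, in CPM per kilobase of exon (log axis), ordered by the mean (black bar). Grey lines span the lowest to the highest library. Entpd1 is at 41.6 and Nt5e at 0.610 CPM per kilobase.

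The 2 steps of the ectonucleotidase pathway were unequally represented. The ratio of Entpd1 to Nt5e per length was 49.5 to 104 in shSC and 45.8 to 260.0 in shChi3l1 libraries, so transcripts for CD39 outnumbered those for CD73 in every library. Likewise P2rx4 exceeded P2rx7 per length by 5.06 to 14.8 times in shSC and 5.14 to 13.4 times in shChi3l1 libraries. P2rx4 and P2rx7 are adjacent genes on chromosome 5 and both encode ATP-gated channels.

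P2ry12 was the member with the largest fitted difference between hairpins, and it was not raised in every shChi3l1 library. It had 20.2, 91.4 and 488 CPM in shChi3l1 1, 2 and 3, from 475, 3075 and 12002 reads. In shSC 1 to 4 it had 21.2, 41.0, 25.6 and 21.1 CPM. ShChi3l1 3 and 2 lay above every shSC library, while shChi3l1 1 was the lowest of all 7, so the groups overlapped. The spread within shChi3l1 was 24.1-fold, and the mean there was 200.0 ± 252 CPM (SD, n = 3) against 27.2 ± 9.40 CPM (SD, n = 4). The fitted log2 fold change was 2.88 (SE 0.85). Leaving out shChi3l1 3 gave 1.04, and leaving out both that library and shSC 4 gave 0.93. A block for the replicate number gave 1.68.

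Gpr34 was the 1 member whose groups did not overlap, beside 1.24% of tested genes that were higher in shChi3l1 in that way. No member lay wholly below, as 1.25% of tested genes did. The gene (ENSMUSG00000040229.11, chromosome X, 13632089 to 13640858, plus strand) lies inside Cask, which is on the opposite strand and shares no exon base with it. Cask was at 0.461 to 5.25 CPM, and the part of its unspliced RNA in the reads of Gpr34 was not tested. Gpr34 had 47.8, 44.9 and 212 CPM in shChi3l1 1, 2 and 3, and 37.8, 21.8, 23.4 and 16.4 CPM in shSC 1 to 4. The lowest shChi3l1 value was thus close to the highest shSC value, and shChi3l1 3 stood far above the rest. The log2 fold change of 2.03 (SE 0.59) was 0.89 without shChi3l1 3 and 0.74 without that library and shSC 4. Within same-numbered pairs Gpr34 was higher in shChi3l1 in 3 of 3, as was Adora2a, beside 12.2% of tested genes.

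P2ry13 had 74.6, 157 and 319 CPM in shChi3l1 1, 2 and 3, and 94.4, 72.2, 78.8 and 49.97 CPM in shSC 1 to 4. As for P2ry12, shChi3l1 2 and 3 lay above every shSC library and shChi3l1 1 lay among them. Its log2 fold change was 1.31 (SE 0.48), and 0.65 without shChi3l1 3. P2ry14 did not share that order, with 71.6, 77.0 and 45.3 CPM in shChi3l1 and 76.2, 64.9, 46.0 and 38.7 CPM in shSC libraries. ShChi3l1 3, the highest library for the other P2Y12-like receptors, was the lowest shChi3l1 library for P2ry14. The log2 fold change of P2ry14 was 0.20 (SE 0.36), and -0.08 with an offset for each library's trend with exon length.

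**Figure D3:**
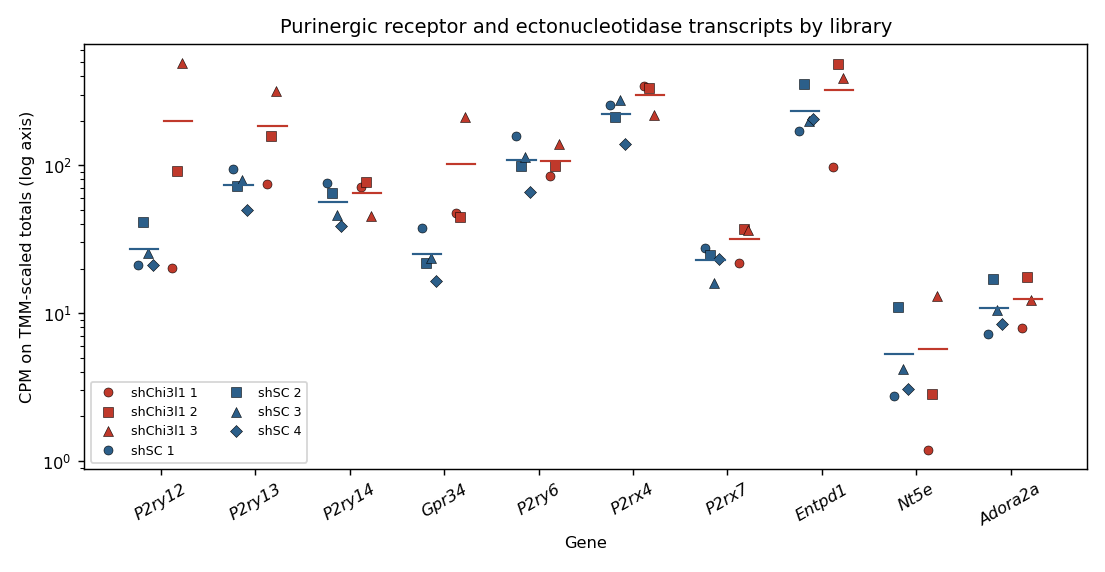
CPM of each member in each library on TMM-scaled totals (log axis). Blue symbols are the 4 shSC and red symbols the 3 shChi3l1 libraries, with the symbol giving the replicate and the bars the group means. Red and blue overlap in every gene except Gpr34, where the lowest shChi3l1 value is 44.9 and the highest shSC value 37.8 CPM.

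The ratio of P2ry12 to P2ry13 transcripts per length was 0.224 to 0.563 in shSC libraries. The shChi3l1 libraries 1, 2 and 3 had ratios of 0.269, 0.576 and 1.52, and the last was the only library of the 7 in which P2ry12 exceeded its neighbour. Of the summed level per length of all 10 members, P2ry12, P2ry13, P2ry14 and Gpr34 made up 30.5% to 35.4% in shSC libraries, 39.5% and 41.3% in shChi3l1 1 and 2, and 72.6% in shChi3l1 3. That sum itself was 126 to 200.0 CPM per kilobase in shSC libraries and 169, 307 and 583 in shChi3l1 1, 2 and 3.

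P2ry6, which drives the uptake of debris by microglia on UDP, had the smallest fitted difference. It had 84.9, 99.0 and 138 CPM in shChi3l1 1, 2 and 3, and 158, 98.8, 113 and 65.6 CPM in shSC 1 to 4. All shChi3l1 values lay within the shSC range, and the log2 fold change was -0.02 (SE 0.37). It ranged from -0.43 to 0.23 over the other settings. The ratio of P2ry12 to P2ry6 per length was 0.152 to 0.470 in shSC libraries and 0.270, 1.05 and 4.00 in shChi3l1 1, 2 and 3.

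Among the P2X channels, P2rx4 had 345, 331 and 219 CPM in shChi3l1 and 253, 213, 277 and 139 CPM in shSC libraries. ShChi3l1 1 and 2 exceeded every shSC library, whereas shChi3l1 3 did not. The log2 fold change was 0.44 (SE 0.36). It was 0.25 with the replicate block, and 0.07 with the length offset and the block together. P2rx7 had 21.9, 37.1 and 36.2 CPM in shChi3l1 and 27.5, 24.8, 15.9 and 23.3 CPM in shSC libraries, and its fitted difference was 0.47 on the log2 scale (SE 0.34). Here shChi3l1 2 and 3 were the highest and shChi3l1 1 lay within the shSC range.

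Entpd1 had 97.1, 482 and 385 CPM in shChi3l1 1, 2 and 3, and 171, 354, 198 and 205 CPM in shSC 1 to 4. The lowest and the highest of the 7 libraries were both shChi3l1. Its log2 fold change of 0.47 (SE 0.53) was 0.05 without shChi3l1 2, 0.87 without shChi3l1 1 and 0.20 with the replicate block. The share of reads in genes with over 5000 exon bases was lowest in the same libraries in which Entpd1 was lowest, at 12.6% in shChi3l1 1 and 14.8% in shSC 1 against 16.8% to 20.7% elsewhere. Entpd1 has 5580 exon bases, and with the length offset its log2 fold change was 0.32. Members with longer exons differed in this. Nt5e (8602 bases) was also lowest in shChi3l1 1 and shSC 1, and P2rx7 (5970 bases) was lowest in shSC 3. P2rx4 (7025 bases) was highest in shChi3l1 1, at 345 CPM. P2ry14 (11059 bases) had 71.6 CPM in shChi3l1 1 and 76.2 CPM in shSC 1, near its highest value of 77.0 CPM. The part of the share of long genes in the spread of Entpd1 was otherwise not tested.

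Nt5e was scarce, with 28 to 391 reads per library. It had 1.19, 2.85 and 12.97 CPM in shChi3l1 and 2.73, 11.04, 4.16 and 3.05 CPM in shSC libraries. ShChi3l1 3 and shSC 2 were both high, and shChi3l1 1 was the lowest. The fitted log2 fold change was 0.11 (SE 0.81) although the mean log2 CPM was lower in shChi3l1 (1.83 against 2.15), and without shChi3l1 3 it was -1.37. Markers of fibroblasts and pericytes, cells that can carry CD73, summed to 15.4 CPM in shChi3l1 3, 1.75 and 2.79 CPM in shChi3l1 1 and 2, and 1.35 to 23.6 CPM in shSC libraries. Rgs5 made up most of the sum in shChi3l1 3 (9.55 CPM), and Cspg4, the most abundant over all libraries, most of that in shSC 4 (15.3 CPM). B-cell markers were at 1892 CPM in shChi3l1 3, 437 CPM in shSC 2 and 529 CPM in shSC 3, where Nt5e was not high. Endothelial markers summed to 23.5, 51.7 and 106 CPM in shChi3l1 1, 2 and 3, and 25.1, 80.8, 55.85 and 43.8 CPM in shSC 1 to 4. Their order of libraries was that of Nt5e, except that shChi3l1 2 and shSC 4 changed places. The part of any of these cells in the Nt5e values was not tested.

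Adora2a had 7.87, 17.4 and 12.3 CPM in shChi3l1 and 7.16, 17.1, 10.5 and 8.38 CPM in shSC libraries. The same-numbered libraries lay close together, and the log2 fold change was 0.22 (SE 0.43). Without shChi3l1 2 it was -0.10.

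Across the 10 members, 9 had a positive fitted log2 fold change and the median was 0.45, beside 57.6% of all tested genes with a positive value and a median of 0.07. Because the members were chosen with this contrast known, nothing is read from that count. With the replicate block the median was 0.23, and with the block and the length offset it was 0.11. ShChi3l1 2 and shChi3l1 3 were each the highest library for 4 members, and shSC 4 was the lowest for 5.

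**Figure D4:**
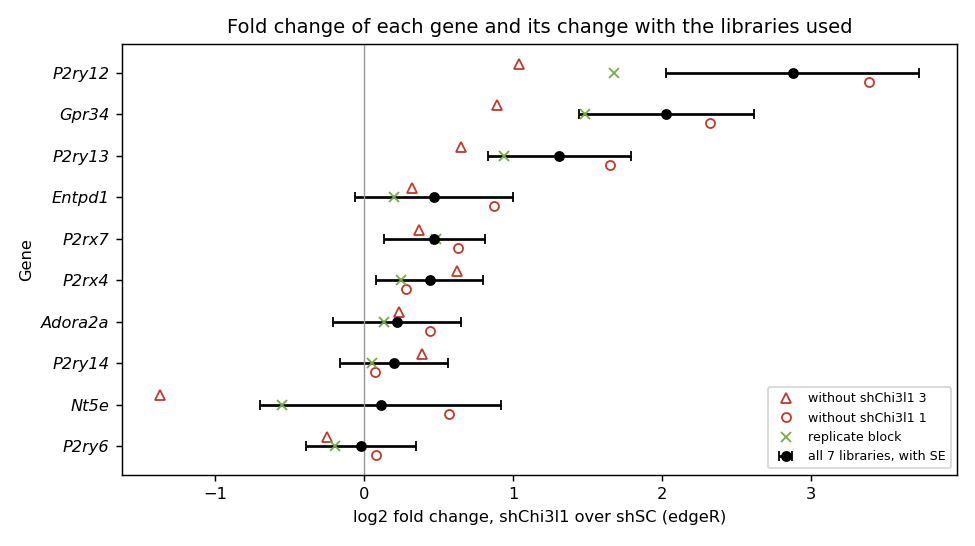
Fitted log2 fold change of each gene, shChi3l1 over shSC (x axis). Black points with bars are the fit to all 7 libraries with its SE, open triangles the fit without shChi3l1 3, open circles without shChi3l1 1 and crosses the replicate block. P2ry12 moves from 2.88 to 1.04 and Nt5e from 0.11 to -1.37 without shChi3l1 3.

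The transcripts whose pattern over the 7 libraries was most like that of P2ry12 were found by the root mean square difference of log2 CPM, each gene centred on its own mean, among 8529 genes. P2ry12 itself varied by 1.57 on that scale. Among the closest genes were Adgrg1, an adhesion receptor gene (0.60), Slco2b1, an organic anion transporter gene (0.60), the cathepsin gene Ctsf (0.62) and Sparc, a matricellular protein gene (0.63). Adgrg1 had 6.00, 31.9 and 136 CPM in shChi3l1 and 2.55 to 12.4 CPM in shSC libraries. P2ry13 ranked 22nd (0.86) and Gpr34 24th (0.88), while the other members ranked from 396th to 5378th.

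For Gpr34 the closest genes included Hpgd, whose product inactivates prostaglandin E (0.39), the microglial gene Tmem119 (0.41), the alkylglycerol monooxygenase gene Agmo (0.43) and P2ry13 (0.49). Gpr34 itself varied by 1.13, and P2ry12 ranked only 144th in likeness to it (0.88). Tmem119 had 197, 258 and 1038 CPM in shChi3l1 and 108 to 263 CPM in shSC libraries, and so overlapped between hairpins. Hpgd, at 15.6, 8.71 and 36.3 CPM in shChi3l1 and 2.88 to 6.24 CPM in shSC libraries, did not. Many of these transcripts are highest in 1 library, shChi3l1 3, and that library weighs heavily in the likeness.

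**Figure D5:**
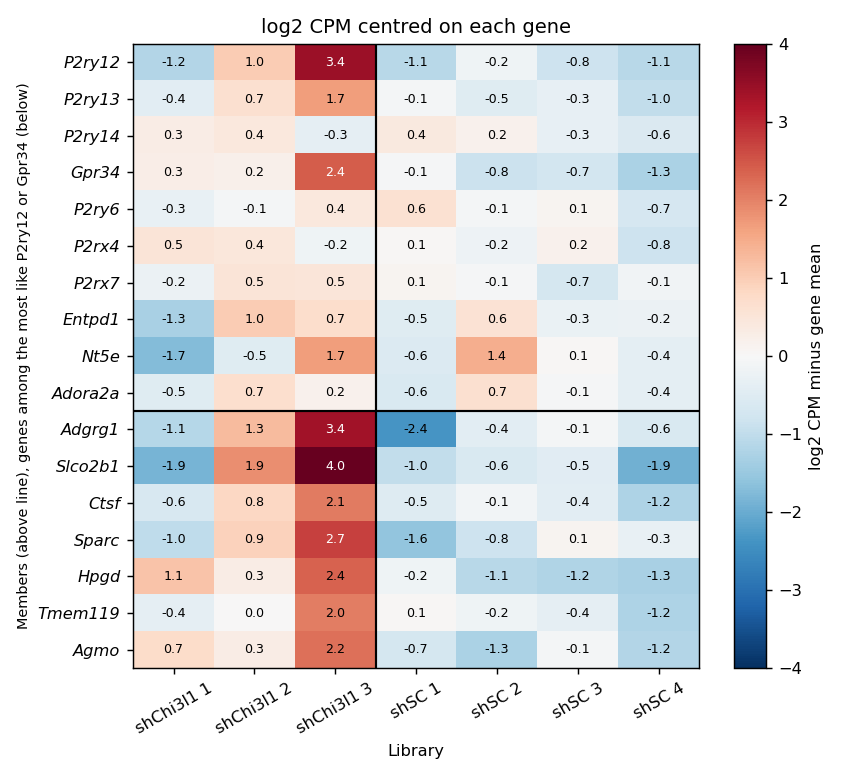
Log2 CPM of the members (above the black line) and of genes among the most like P2ry12 or Gpr34 (below), each centred on its mean over the 7 libraries. The values reach 3.4 for P2ry12 and 4.0 for Slco2b1 in shChi3l1 3, while P2ry14 and P2rx4 are below their means there (-0.3 and -0.2).

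Markers of cell types moved with these receptors as well. Microglia markers, a list of 12 that holds none of the members, summed to 1364, 2814 and 5416 CPM in shChi3l1 1, 2 and 3. In shSC libraries they summed to 1269 to 1863 CPM. That is the same order of the shChi3l1 libraries as for P2ry12 and P2ry13. The sums of B-cell, endothelial, fibroblast and pericyte, and tumour and glial markers had this order too. All 12 microglia markers had reads in every library, and all 12 had a positive fitted log2 fold change. So did the 10 macrophage markers (9 with DESeq2's size factors) and the 7 tested B-cell markers. With the replicate block, with voom or without shChi3l1 1, 6 of the 10 macrophage markers were positive. Without shChi3l1 3 a positive value was left for 11 of the 12 microglia markers, all 10 macrophage markers and 1 of the 7 B-cell markers, and that of Tmem119 went from 1.33 to 0.20. In bulk samples like these, more cells of a type and more RNA per cell cannot be told apart. Monocyte-derived macrophage markers, by contrast, were lowest among shChi3l1 libraries in shChi3l1 3 (2762 CPM, against 5058 and 5028 CPM), and at 2462 to 4619 CPM in shSC libraries. Tgfbi was the most abundant of them over all libraries.

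P2ry12 is also a receptor gene of platelets. The 9 platelet markers summed to 17.0 CPM in shChi3l1 3, the lowest of the 7 libraries, where P2ry12 was highest, and to 200.0 CPM in shSC 4, where P2ry12 was at 21.1 CPM. Pf4, which macrophages can express too, was the most abundant of them at 8.26 to 191 CPM, and 6 of the 9 were at 0 reads in at least 1 library. Of the scarcer platelet markers, Gp9 and Treml1 ran the other way. Gp9 had 42 reads in shChi3l1 3 and 0 to 7 elsewhere, and Treml1 had 4 reads there and 0 or 1 elsewhere. Gp6 and Clec1b did not. Gp6 had 0 reads in shChi3l1 3 and 1 to 25 elsewhere, and Clec1b had 3.50 CPM there and 5.92 to 22.1 CPM elsewhere. Ppbp, Gp1ba and Itga2b lay between their lowest and highest library there. The mean of the 9 centred log2 values was 0.40 in shChi3l1 3 and 0.41 in shSC 4. The single platelet markers given here, except Pf4, were named after their values were seen. B-cell markers ran from 185 to 1892 CPM in shChi3l1 and from 102 to 529 CPM in shSC libraries, with Ighm the most abundant. Endothelial markers, from cells that carry CD39, were at 23.5 to 106 CPM in shChi3l1 and 25.1 to 80.8 CPM in shSC libraries, with Cldn5 the most abundant over all libraries. The sums for T and NK cells (72.3 to 251 CPM in shChi3l1, 36.4 to 347 CPM in shSC), dendritic cells (548 to 852 against 263 to 1341) and neutrophils (85.8 to 148 against 36.6 to 103) overlapped between hairpins. Over all libraries their most abundant genes were Lck, Ccr7 and Csf3r. Tumour and glial markers were at 71.8 to 101 CPM in shChi3l1 and 41.1 to 269 CPM in shSC libraries. Mbp was the most abundant of them over all libraries, with 90.6 CPM in shChi3l1 3, while the sum in shSC 4 was mostly Fabp7 (141 CPM). The part of these cells in the member values was not tested.

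Of 57 other genes of the purinergic system, 48 were tested and 0 passed in either direction. Their median log2 fold change was 0.16, beside 0.07 for all tested genes. Of the 48, 36 (75.0%) were higher and 12 lower, beside 57.6% of all tested genes that were higher. These lists too were chosen with earlier results of these data known, so nothing is read from that count. Among other nucleotide and related receptors, 3 of 6 tested were higher. Gpr171, which lies beside P2ry14, was the most abundant of them per length, with 318, 255 and 169 CPM in shChi3l1 and 114 to 198 CPM in shSC libraries (log2 fold change 0.50, SE 0.36). Gpr17, a gene of oligodendrocyte precursors, had the largest fitted value, -1.27 (SE 1.64), and was highest in shSC 4 at 2.24 CPM. Of the other P2X genes, 3 of 5 were tested. P2rx1 led both in level, at 0.255 to 3.81 CPM, and in size of change, at -0.54 (SE 0.91).

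All 3 other adenosine receptor genes had a positive value, and 1 of 3 without shChi3l1 3. Adora2b, the low-affinity receptor, had 77.9, 70.6 and 32.9 CPM in shChi3l1 and 80.2, 23.3, 40.6 and 48.9 CPM in shSC libraries. Per length its mean in shSC libraries was 26.2 ± 12.9 CPM per kilobase (SD, n = 4), with a range of 12.7 to 43.5 that lies above the 2.34 to 5.59 of Adora2a. Adora3 had 12.9 CPM in shChi3l1 3 and 0.903 to 4.13 CPM elsewhere, and its log2 fold change of 1.35 (SE 0.75) was -0.00 without that library. Other genes share 20.89% of the exon bases of Adora3.

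Among ectoenzymes, Cd38, which cleaves NAD, overlapped between hairpins, with 163 to 234 CPM in shChi3l1 and 157 to 231 CPM in shSC libraries (log2 fold change 0.05, SE 0.31). Acpp, a phosphatase gene, was at or below 4.32 CPM, with the largest value of its list at -0.60 (SE 1.35). It was highest in shSC 2 and shChi3l1 2, and its value was 1.47 without the first and -2.80 without the second. The related diphosphohydrolase genes Entpd2, Entpd3 and Entpd8 had too few reads to be tested. The intracellular diphosphohydrolase genes Entpd5, Entpd6 and Entpd7 had values of 0.24, 0.32 and 0.19. Of the 6 adenosine uptake and turnover genes, 1 had a positive value, and their median was -0.10. Without shChi3l1 3, 3 of the 6 were positive. Pnp, a purine nucleoside phosphorylase gene, was the most abundant per length (log2 fold change -0.08, SE 0.40), and Slc29a3, a lysosomal nucleoside transporter gene, had the largest value. Other genes share 21.86% of the exon bases of Pnp. Slc29a3 was at 31.6, 218 and 169 CPM in shChi3l1 and 37.7, 139, 59.5 and 52.8 CPM in shSC libraries, with a log2 fold change of 0.95 (SE 0.65). Its low libraries, shChi3l1 1 and shSC 1, are also those of Entpd1.

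The 3 genes of ATP release and the 4 of the turnover of the Gpr34 ligand all had positive values, with medians of 0.38 and 0.13. With DESeq2's size factors 2 of 3 and 3 of 4 were positive. Panx1, a channel gene for ATP release, had a log2 fold change of 0.02 (SE 0.35), and Slc17a9, the vesicular nucleotide transporter gene, 0.66 (SE 0.44), which was 0.20 without shChi3l1 3. Abhd12, whose product breaks down lysophosphatidylserine, had 264 to 341 CPM in shChi3l1 and 236 to 349 CPM in shSC libraries (0.19, SE 0.32). Pla1a, a phospholipase gene that can produce that lipid, was at 1.06 to 3.96 CPM (0.65, SE 0.56). Of the 8 signalling partners of the P2Y12 receptor, all had positive values with a median of 0.06, near the 0.07 of all tested genes, but 5 with DESeq2's size factors and 3 with upper quartile factors. Gnai2, the inhibitory G protein subunit, was at 0.06 (SE 0.40) and Gng10 at 0.47 (SE 0.50), which was -0.25 without shChi3l1 1. The gene Gm20503 shares 71.99% of the exon bases of Gng10, and how reads there were assigned is not stated.

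The 7 genes of the inflammasome route downstream of P2rx7 had a median of 0.32. Without shChi3l1 1 that median was 0.03, with 4 of the 7 positive. It was 0.11 without shSC 2 and 0.10 without shSC 3. Il1b was abundant at 2940 to 7142 CPM in shChi3l1 and 3348 to 6090 CPM in shSC libraries, with a fitted log2 difference of 0.16 (SE 0.43). Il18 was at 0.55 (SE 0.46), and -0.15 without shChi3l1 1.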

How the data were processed

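The deposited files hold whole-number read counts per gene, 1 file per library. Per the submitters' processing notes Trim Galore, HISAT2, featureCounts and mm10 were used, with no version, setting or annotation stated there. Per the labels' protocols, 10 ng of RNA gave full-length cDNA, of which 1 ng entered each library. PCR copies are not independent molecules. Gene names came from GENCODE M21, which matched 55144 of 55385 IDs and lists Chi3l1 as Chil1. Groups came from the titles. No library was left out.

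Genes were kept by filterByExpr at a minimum count of 10. The quasi-likelihood F test of edgeR 4.0.16 (R 4.3.3) was run after TMM scaling, with hairpin as the only term. CPM are relative to TMM-scaled library sizes, and logarithms were taken after adding 0.5 reads. Standard errors of fold changes come from the F statistic. Likeness was sought among tested genes whose log2 CPM averaged 2 or more, with an established symbol. The members, lists and tests were chosen with earlier results of these data known. Named genes are the members, their neighbours, the most abundant gene and the gene of largest fold change of each pathway list, the most abundant gene of each marker list, and the 5 most like P2ry12 or Gpr34. Genes of a marker list at 0 reads in all libraries would also have been named, and there were none. Some genes this rule names are not reported here.

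The labels pair replicates 1 to 3 in a figure of the study. Deviations from group means correlated across genes at 0.307, 0.26 and 0.188 within these pairs, all over the limit of 0.1. Unmatched libraries passed that limit too, with 0.322 for shChi3l1 3 with shSC 2 and 0.208 for shChi3l1 2 with shSC 4. The replicate number was used as a block in alternatives. No libraries agreed within sampling noise. The script was tested on simulated data. Alternatives were other size factors, filters and tools (limma 3.58.1, DESeq2 1.42.0), each library left out, the block, and an offset for the loess trend (span 0.5) with exon length.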

Additional observations from a re-analysis of the deposited data

Results flagged for a closer look

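Among the 4 shSC libraries, 1 was set apart where its gap to the nearest of the others passed Dixon's 95% limit as a share of the group's range, which chance gives in about 1 of 20 groups. None of the 10 members had such a library among the shSC values, and 2 of 14 library measures did. The summed CPM of macrophage markers was 30999 in shSC 2 against 21481 to 22180 in the other shSC libraries, a gap of 0.927 of the range. The summed CPM of platelet markers was 200.0 in shSC 4 against 29.8 to 54.2 in the others, a gap of 0.856 of the range.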

How the results depend on the processing

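The number of genes called was 0 under every alternative except DESeq2's Wald test, which called 1, and 0 in each fit that left out a library. Called genes with the replicate block (6 libraries, shSC 4 left out) numbered 0, with 435 at an unadjusted p under 0.05, against 143 in the same 6 libraries without the block and 229 in all 7. The block changed no call. The number of members with a positive log2 fold change was 8 with the block, 7 to 10 over all alternatives, and 8 to 10 when 1 library was left out. Their median log2 fold change was 0.23 with the block and ranged from 0.30 to 0.64 when 1 library was left out. P2ry12, P2ry13, Gpr34, P2rx4, P2rx7 and Entpd1 kept a positive value under all 17 alternatives, P2ry12 from 0.93 to 3.39, P2ry13 from 0.50 to 1.65 and Gpr34 from 0.74 to 2.38. The sign of Nt5e changed under 7 alternatives, of P2ry6 under 4, of P2ry14 under 2 and of Adora2a under 1, and the cause was not tested. The lowest read count of any member was 28, for Nt5e in shChi3l1 1.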
